A study of Mus musculus with 13 samples.

Results

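The nuclear-encoded subunits of the mitochondrial respiratory chain are followed here through 4 ages in cell fractions of the mouse brain that were enriched for Pdgfra and are labelled as oligodendrocyte precursor cells (OPCs). Members were protein-coding genes whose GENCODE M21 symbol begins with Nduf, Sdh, Uqcr, Cox4 to Cox8 or Atp5 and follows the subunit naming of the respiratory complexes. This gave 83 of the 37785 counted genes: 36 of complex I, 4 of complex II, 8 of complex III, 18 of complex IV and 17 of complex V. Ndufa4 is counted with complex I by its symbol although its protein is found in complex IV, Atp5s is not a structural subunit, and the subunits Cyc1 and Ndufab1 fall outside the pattern.

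The libraries hold total RNA of cells enriched from brains of wild-type C57BL/6 mice with magnetic beads against Pdgfra, the growth factor receptor that marks OPCs, and they were made with a low-input stranded kit. There were 3 libraries at embryonic day 16 (E16), 3 at postnatal day 12 (P12), 3 at P80 and 4 at P310. The ages recorded for single mice were P81 for 2 of the P80 mice and P306 to P308 for the P310 mice. Myelin was removed with beads at P80 and P310 only, so this step and adult age cannot be told apart.

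Complex I takes electrons from NADH and complex II takes them from succinate. Complexes III and IV pass them on to oxygen, and protons pumped on the way drive ATP synthase, called complex V here. Most subunits are encoded in the nucleus and imported, while a small set of core subunits of complexes I, III, IV and V is encoded in mitochondrial DNA, and complex II is wholly nuclear. OPCs divide and move, and their maturation into myelin-forming oligodendrocytes is known to place a high demand on energy supply.

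Libraries held 8669521 to 25810455 gene counts, of which 1.52% to 34.4% came from the mitochondrial genome and 0.175% to 0.596% from the 83 members. The counts of P12 replicates 2 and 3 lay almost within sampling noise of each other (a chi-square of 2.34 per gene, against 16.6 to 179 in the 14 other pairs of 1 age). They were counted as 1 sample, P12 replicate 2-3, which leaves 12 samples and n = 2 at P12. Values are CPM, counts scaled by TMM to a common library total, and p-values, which measure only the spread between these samples, are from edgeR's quasi-likelihood test with Benjamini-Hochberg adjustment over 21170 genes and a threshold of 0.05. Of the members, 80 passed the low-count filter. Cox6a2, Cox7b2 and Cox8c did not and have no test.

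The sorted fractions did not hold the same mix of marker transcripts at each age, and the markers do not bear out the OPC label as that of a pure population. The summed level of 16 OPC genes was 935, 829 and 779 CPM at E16, 691 and 795 CPM at P12, 358, 414 and 422 CPM at P80 and 444, 456, 294 and 294 CPM at P310, with Neu4 at 0 at E16. The 12 endothelial markers summed to 7168 and 6356 CPM at P12, against 83.2, 85.9 and 64.6 CPM at E16, and the 14 immature neuron genes summed to 298 and 399 CPM at P12, against 8886, 7518 and 7549.6 CPM at E16. At P12 relative to E16, all 12 endothelial genes rose, as did 10 of 12 mural, 9 of 11 astrocyte, 9 of 11 microglia, 8 of 12 oligodendrocyte and 9 of 10 ependymal and choroid plexus genes. Falls were seen in 12 of 14 immature neuron, 4 of 11 mature neuron and 2 of 9 erythroid genes, while of the OPC genes 4 rose and 2 fell. These are genes that passed the test, as did 16.7% of all genes as higher and 10.5% as lower. By DESeq2 and limma-voom, 5 and 5 oligodendrocyte genes and 3 and 9 OPC genes rose. The oligodendrocyte sum was 8417 and 479 CPM at P12, against 76.7, 88.0 and 72.9 CPM at E16. In summed CPM, not scaled by gene length, the OPC genes lay below the immature neuron genes in every E16 sample and below the endothelial genes in every later sample. In bulk samples fewer cells of a type and less RNA per cell cannot be told apart. The part of these cells in the changes of the members was not tested.

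Promoters of 66 members were found in RefSeq (build GRCm38.p6), and 4 are shown, each as the 250 bases before the RefSeq transcription start. They were chosen after the values were seen, as a subunit that fell at P12 with a CCAAT-rich promoter (Atp5b), one that fell with none of the motifs searched (Cox5a), and 2 members with 3 nuclear respiratory factor 1 (NRF-1) matches each that did not pass any test between ages (Sdha and Ndufb4, an accessory subunit of complex I). The window of Atp5b lies at chr10:128083057-128083306, plus strand, and that of Cox5a at chr9:57520982-57521231, plus strand. That of Sdha lies at chr13:74350241-74350490, minus strand, and that of Ndufb4 at chr16:37654369-37654618, minus strand. The RefSeq start differs from the start of the counted gene. The windows of Atp5b, Sdha and Ndufb4 reach into that gene, and that of Cox5a ends before it. Capitals mark matches on either strand to the NRF-1 letters (GCGC, any 2 bases, GCGC), the ETS letters CCGGAAG (bound by the factor Gabpa among others) or the letters CCAAT, and no matches of different motifs overlapped in these windows.
Atp5b: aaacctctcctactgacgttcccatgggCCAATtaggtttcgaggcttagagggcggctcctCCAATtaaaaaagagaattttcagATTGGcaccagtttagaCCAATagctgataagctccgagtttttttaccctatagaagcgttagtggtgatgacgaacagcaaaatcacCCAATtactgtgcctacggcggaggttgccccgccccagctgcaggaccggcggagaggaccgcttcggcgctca
Cox5a: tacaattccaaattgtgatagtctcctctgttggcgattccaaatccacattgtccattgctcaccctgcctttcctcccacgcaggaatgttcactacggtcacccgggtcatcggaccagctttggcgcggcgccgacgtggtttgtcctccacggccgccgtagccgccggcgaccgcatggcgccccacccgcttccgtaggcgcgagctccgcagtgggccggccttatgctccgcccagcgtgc
Sdha: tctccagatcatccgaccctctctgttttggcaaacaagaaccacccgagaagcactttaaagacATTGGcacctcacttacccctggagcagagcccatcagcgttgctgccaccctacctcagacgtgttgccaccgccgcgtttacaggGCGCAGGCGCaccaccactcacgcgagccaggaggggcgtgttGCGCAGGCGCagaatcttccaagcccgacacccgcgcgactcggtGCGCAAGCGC
Ndufb4: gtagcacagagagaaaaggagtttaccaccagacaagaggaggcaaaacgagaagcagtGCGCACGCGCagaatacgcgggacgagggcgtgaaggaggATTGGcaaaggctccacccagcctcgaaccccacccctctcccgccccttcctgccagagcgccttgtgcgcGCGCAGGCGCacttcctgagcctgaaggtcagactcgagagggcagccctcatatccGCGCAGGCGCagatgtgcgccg

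The NRF-1 letters stood in 13 of the 66 member promoters (19.7%), and in 4.98% of the 32851 mouse promoters of the same length. The ETS letters stood in 11 (16.7%), against 6.91% of all promoters, and CCAAT in 29 (43.9%), against 33.9%. Of the 6 members that fell at P12, described below, 4 had a promoter in the table: Atp5b with 5 CCAAT matches, and Cox5a, Ndufa10 and Atp5o with no match to any of the 3 motifs. A match is a string of letters and not a measured binding site.

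Summed over all 83 members, transcripts were highest at E16 and varied much between samples of 1 age. The sum was 3014, 3303 and 5134 CPM at E16, 3107 and 1902 CPM at P12, 2018, 2076 and 2174 CPM at P80 and 2428, 3041, 2248 and 1773 CPM at P310. The P80 samples lay close together, E16 replicate 3 was the highest of all samples, and the ranges of P12 and E16 overlapped. The mean was 2505 ± 852 CPM at P12 (SD, n = 2), against 3817 ± 1150 CPM at E16 (n = 3), and was 2089 ± 78.7 CPM at P80 (n = 3) and 2373 ± 524 CPM at P310 (n = 4). On the log2 scale the sum at P12 differed from that at E16 by -0.61, and by the same -0.61 when mitochondrial genome counts were left out of the scaling. It was -0.33 without E16 replicate 3, -0.30 without P12 replicate 2-3 and -1.005 without P12 replicate 1.

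Every complex had its highest mean sum at E16. Complex V, the ATP synthase, had 1299, 1390.3 and 2034 CPM at E16, 1183 and 714 CPM at P12, 726, 669.6 and 817 CPM at P80 and 839, 835, 780.1 and 604 CPM at P310. At P12 its sum differed by -0.73 on the log2 scale from that at E16 in the ratio of means, and the P12 samples both lay below the E16 samples. Complex IV, the cytochrome c oxidase, differed by -0.68, complex I by -0.55 and complex III by -0.45. Complex II differed by -0.21, with 210.1, 207 and 253 CPM at E16 and 224 and 162 CPM at P12. At P80 it had 175, 168 and 179 CPM and at P310 201, 209, 191 and 158 CPM. For these 4 complexes the P12 and E16 samples overlapped. Single samples moved all of these ratios. Without P12 replicate 2-3 they were -0.41 for complex V, -0.34 for IV, -0.26 for I, -0.08 for III and 0.005 for II, without E16 replicate 3 they were -0.50, -0.29, -0.25, -0.13 and -0.11, and without P12 replicate 1 they were -1.14, -1.14, -0.91, -0.94 and -0.47. The sums are not scaled by gene length, so genes with many counts weigh most. At E16 Sdha averaged 119 CPM of the mean complex II sum of 223 CPM, and its log2 change at P12 was 0.011. Sdhb, Sdhc and Sdhd changed by -0.81, -0.33 and -0.39. No difference between complexes was tested.

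**Figure D1:**
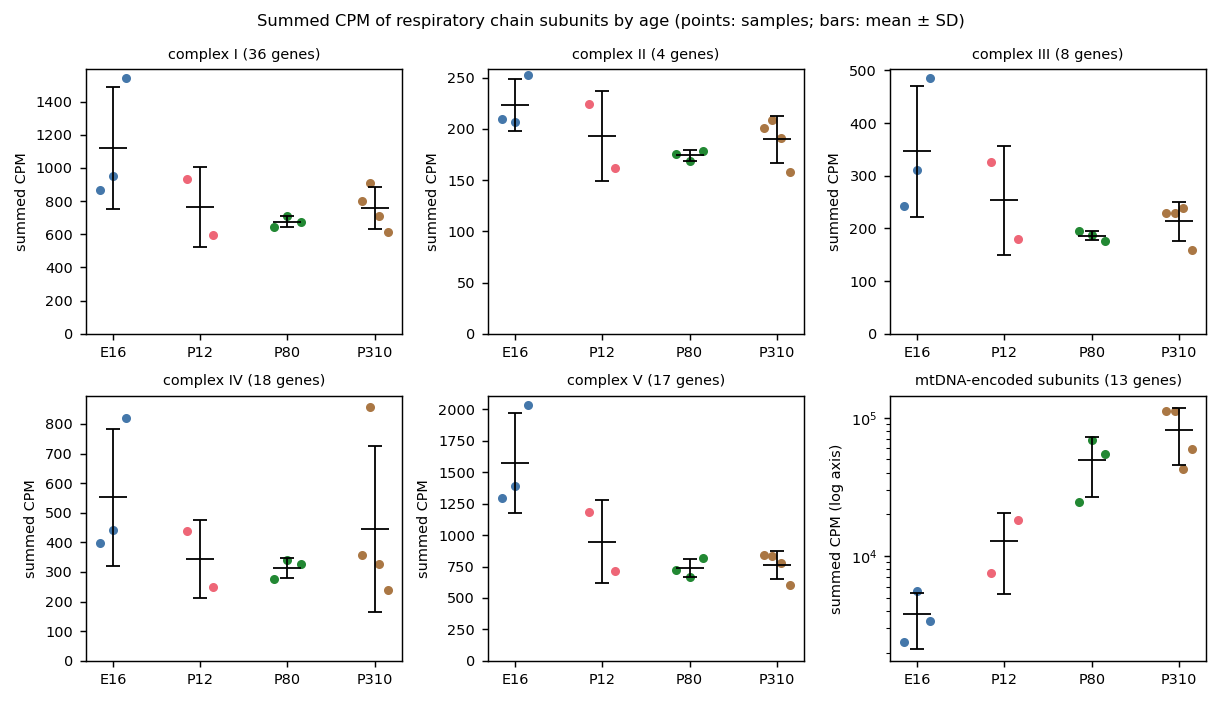
Summed TMM-scaled CPM (y axis) of the members of complexes I to V and of the 13 subunits encoded in mitochondrial DNA (log axis in that panel), by age (x axis). Points are samples and bars are mean ± SD (n = 3, 2, 3 and 4). One E16 sample lies above the rest in complexes I, II, III and V, while the mean mtDNA-encoded sum is higher at each later age.

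Between single members the difference was broad and shallow. At P12, 72 of the 80 tested members had a negative log2 change relative to E16 and 8 a positive one, with a median of -0.60, while the median of all 21170 genes was 0.09. The median was -0.71 for complex V, -0.64 for complex IV, -0.57 for complex I, -0.40 for complex III and -0.36 for complex II. That of all members shrank to -0.25 when E16 replicate 3 was left out and to -0.33 when P12 replicate 2-3 was. Leaving out P12 replicate 1 gave -1.01. In these 3 settings 57, 55 and 76 of the 80 members had a negative change, and the share of all genes was not computed.

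By the test, 6 members fell at P12 relative to E16 and none rose. That is 7.5% of the 80, against a background of 10.5% of all genes called lower, and 0 of 80 against 16.7% of all genes called higher. At an unadjusted p under 0.05, 14 members were lower and 1 (Cox7a1) higher (18.8% of the 80, background 38.1%). DESeq2 called 12 lower and 1 higher and limma-voom 14 lower and 1 higher. No share of all genes was computed for DESeq2 or limma-voom. The groups did not overlap in 19 members that were lower at P12 (23.8%, background 30.9%). The shares of 18.8% and 23.8% were both below those of all genes. The groups also did not overlap in 1 member that was higher, a direction for which no background share was computed. The count of 6 was 1 without E16 replicate 3, 0 without P12 replicate 2-3 and 3 without E16 replicate 2.

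**Figure D2:**
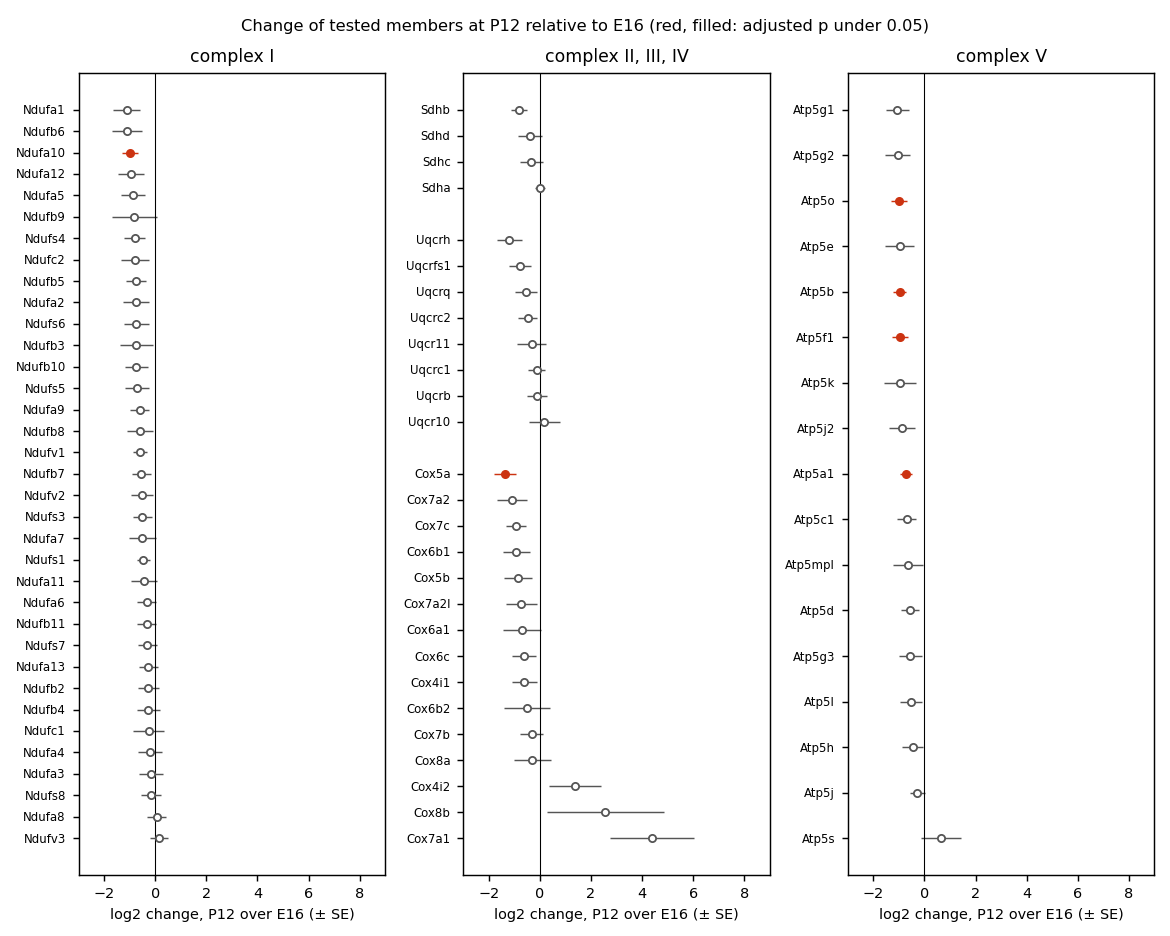
Log2 change at P12 relative to E16 (x axis) of 79 of the 80 tested members (y axis, by complex), with bars of ± 1 SE from the edgeR fit. Red filled points passed an adjusted p of 0.05: Ndufa10, Cox5a, Atp5o, Atp5b, Atp5f1 and Atp5a1. Most points lie left of 0.

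Of the 6 members that fell, 4 were among the 17 tested members of complex V, the ATP synthase. In complex I 1 of 36 fell and in complex IV 1 of 15. Atp5b (chr10:128083273-128090391 in GRCm38), the catalytic beta subunit, had 347, 358 and 446 CPM at E16, 237 and 155 CPM at P12, 144, 120.3 and 149 CPM at P80 and 179, 176, 150.1 and 113 CPM at P310. Both P12 values lay below all E16 values, the P80 samples lay below both P12 samples, and the P310 samples overlapped P12. Its log2 change at P12 relative to E16 was -0.97 ± 0.26 (SE), with an adjusted p of 0.0116, and it was the one member of the 6 that still passed without E16 replicate 3 (adjusted p = 0.043). Without P12 replicate 2-3 none of the 6 passed, with adjusted p from 0.16 for Atp5b to 0.351 for Atp5a1 and Atp5o.

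Atp5a1 (chr18:77773729-77782869), the alpha subunit that alternates with beta in the catalytic head, had 393, 373 and 435 CPM at E16, 298 and 193 CPM at P12, 161, 139 and 183 CPM at P80 and 178, 148, 169.8 and 129 CPM at P310. The ages did not overlap between E16, P12 and adulthood, with all P80 and P310 samples below both P12 samples. The change at P12 relative to E16 was -0.71 ± 0.23 (SE), adjusted p = 0.0368. Atp5a1 did not pass without any 1 of the E16 samples or without P80 replicate 1. It also failed with upper quartile scaling, with no low-count filter and with only the 2 ages compared. In these edgeR fits the adjusted p ran from 0.0515 to 0.121.

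Atp5f1 (chr3:105942698-105960099) encodes the b subunit of the peripheral stalk that holds the head still. Its levels were 74.6, 89.2 and 124 CPM at E16, 60.6 and 37.8 CPM at P12, 37.8, 53.6 and 32.4 CPM at P80 and 31.9, 27.3, 37.98 and 30.3 CPM at P310. Atp5o (chr16:91684398-91931687) encodes OSCP, the protein that joins that stalk to the head, and had 59.8, 71.9 and 107 CPM at E16, 53.00 and 27.04 CPM at P12, 24.5, 22.2 and 24.97 CPM at P80 and 33.9, 27.9, 29.6 and 22.2 CPM at P310. For both genes every E16 sample lay above every later one. The changes were -0.96 ± 0.31 (SE) for Atp5f1 (adjusted p = 0.0318) and -0.996 ± 0.33 (SE) for Atp5o (adjusted p = 0.0373). Counting ignored strand and gave a read to each gene it overlaps: Atp5f1 shares 337 exon bases with Wdr77 on the opposite strand, and Atp5o shares 287 with Donson on its own strand, so reads there count for both.

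Outside complex V, Cox5a and Ndufa10 fell. Cox5a (chr9:57521274-57532426), a nuclear subunit that docks on the mitochondrially encoded core of cytochrome c oxidase, had 28.4, 27.2 and 50.1 CPM at E16, 16.1 and 11.2 CPM at P12, 9.76, 11.9 and 10.7 CPM at P80 and 8.18, 11.8, 10.9 and 5.44 CPM at P310. Its change at P12, -1.37 ± 0.42 (SE), was the lowest of the 80 members (adjusted p = 0.0241). Ndufa10 (chr1:92439010-92473860), an accessory subunit of complex I, had 56.6, 47.3 and 69.9 CPM at E16, 30.8 and 27.4 CPM at P12, 23.4, 25.4 and 17.04 CPM at P80 and 36.2, 29.5, 32.3 and 20.5 CPM at P310. Its change was -0.995 ± 0.31 (SE), adjusted p = 0.0260. In both genes the E16 samples lay above all later samples. Ndufa10, Cox5a, Atp5a1 and Atp5b share no exon bases with another counted gene. In the pseudogene search described below, Cox5a, Atp5b, Atp5f1 and Atp5o had 1 copy each, while Ndufa10 and Atp5a1 had 0.

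No core subunit of complex I named here passed the test at P12 relative to E16. Ndufs1, its largest iron-sulfur subunit, had 53.3, 45.7 and 62.6 CPM at E16, 41.4 and 36.8 CPM at P12, 32.7, 33.2 and 27.1 CPM at P80 and 41.4, 37.9, 37.00 and 31.8 CPM at P310, and Ndufv1, which binds NADH, had 42.9 and 34.8 CPM at P12, against 56.6, 57.6 and 61.2 CPM at E16. Both were lower at P12 in every sample without passing the test (log2 change -0.46 ± 0.24 (SE), adjusted p = 0.182, and -0.59 ± 0.27 (SE), adjusted p = 0.119).

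In complex II, Sdha, the flavoprotein that oxidises succinate, had 124, 112 and 121 CPM at E16, 133 and 107 CPM at P12, 119, 110.2 and 117 CPM at P80 and 106, 146, 130.3 and 118 CPM at P310. All 4 ages overlapped, and the log2 change at P12 relative to E16 was 0.011 ± 0.20 (SE), with an adjusted p of 0.975. Its iron-sulfur partner Sdhb had 28.1 and 20.3 CPM at P12, against 32.5, 40.1 and 54.8 CPM at E16, with no overlap (log2 change -0.81 ± 0.32 (SE), adjusted p = 0.0719). The difference between the changes of Sdha and Sdhb was not tested.

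No member of complex III passed the test at P12 relative to E16. Uqcrc1, a core protein of the complex, had 70.6, 81.4 and 94.05 CPM at E16, 89.5 and 60.5 CPM at P12, 45.5, 17.7 and 35.1 CPM at P80 and 48.6, 53.4, 60.6 and 40.6 CPM at P310. P12 overlapped E16 (log2 change -0.13 ± 0.34 (SE), adjusted p = 0.816), while the P80 samples lay below both P12 samples (log2 change -1.19 ± 0.33 (SE) for P80 relative to P12, adjusted p = 0.123). Uqcrfs1, the Rieske iron-sulfur protein, had 31.2, 37.7 and 60.9 CPM at E16, 32.7 and 18.1 CPM at P12, 21.4, 13.5 and 23.8 CPM at P80 and 13.7, 8.91, 21.4 and 14.96 CPM at P310. Its E16 and P12 samples overlapped, and its change at P12 was -0.77 ± 0.43 (SE), adjusted p = 0.202. The hinge protein Uqcrh had 37.7, 69.7 and 99.4 CPM at E16, 41.4 and 19.1 CPM at P12, 18.4, 22.97 and 20.9 CPM at P80 and 25.6, 56.2, 27.1 and 20.5 CPM at P310, and its change at P12 was the lowest of the complex, -1.19 ± 0.48 (SE), adjusted p = 0.0819, with overlapping samples. Uqcrb, which is needed for the complex to assemble, had its highest mean at P80, with 26.9, 34.9 and 61.4 CPM at E16, 54.3 and 22.1 CPM at P12, 37.6, 57.3 and 40.3 CPM at P80 and 23.9, 29.5, 38.2 and 25.8 CPM at P310. Each of the 5 complexes had its lowest mean sum at P80.

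**Figure D3:**
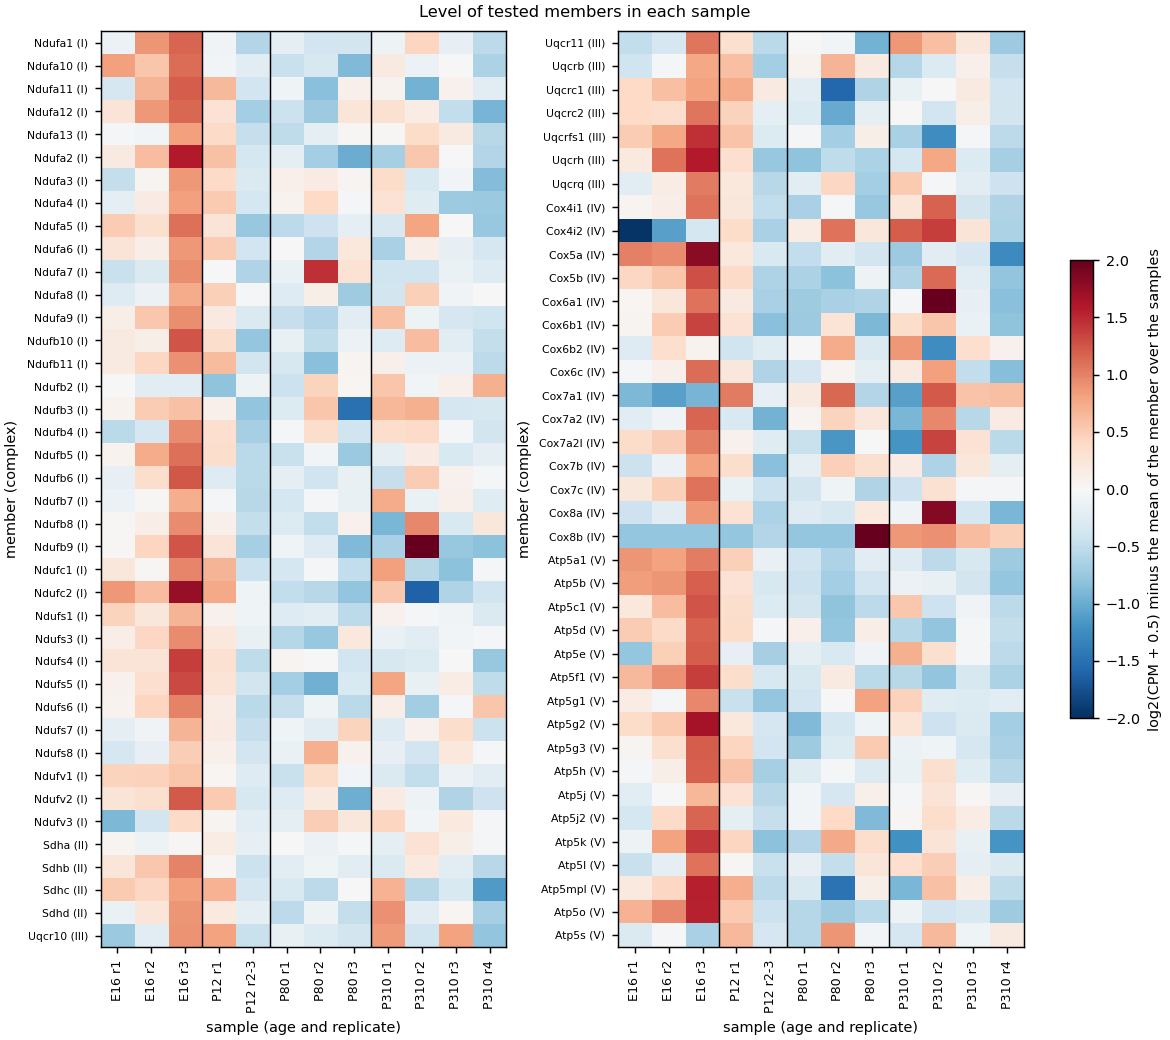
Level of 79 of the 80 tested members (down the page, with the complex in brackets) in each of the 12 samples (across), as log2(CPM + 0.5) minus the mean of that member over the samples. Black lines part the ages. The column of E16 replicate 3 is high for almost all members and P12 replicate 2-3 is lower than P12 replicate 1. P310 replicate 2 was above the mean of the other P310 samples in 50 of the 80 tested members, by a median log2 difference of 0.25. That sample had the lowest TMM factor of the 12 samples, 0.631, which raises its CPM.

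Over the 4 ages in 1 test, 17 of the 80 members differed (21.2%, background 37.1%), and all 17 had their highest mean at E16. They comprised 7 of the 17 tested members of complex V, 4 of the 36 of complex I and 4 of the 8 of complex III. The others were Sdhb and Cox5a, and the 6 members above were included. The 4 of complex III were Uqcrc1, Uqcrc2, Uqcrh and Uqcrfs1, with adjusted p of 0.0121, 0.0474, 0.0184 and 0.0129. Those of complex I included Ndufa10, Ndufs1 and the accessory subunit Ndufc2, which had 24.8, 20.9 and 46.2 CPM at E16, 23.2 and 12.6 CPM at P12, 9.44, 9.02 and 7.58 CPM at P80 and 19.7, 4.07, 8.74 and 10.03 CPM at P310. Ndufc2 overlapped between P12 and E16 and was below every E16 sample at P80 and P310. Without E16 replicate 3 the count was 7.

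Over all tested members, 63 of 80 had their highest mean at E16 (78.8%, background 38.1%), 4 at P12, 7 at P80 and 6 at P310. Without E16 replicate 3 the number was 44 (55.0%, background 37.0%). That sample was above the mean of the other E16 samples in 76 of 80 members, by a median of 0.83 on the log2 scale. The excess was 0.996 for the 21 members with the shortest exon lengths (under 1000 bases) and 0.59 for the 17 longest. P12 replicate 1 was above P12 replicate 2-3 in 77 of 80, by a median of 0.70, and held more oligodendrocyte marker transcript (8417 and 479 CPM in replicate 1 and replicate 2-3) and more ependymal and choroid plexus transcript (5620.4 and 891 CPM). The part of these markers in the difference was not tested.

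After P12 no step in age was passed by any member. In simulated counts, 44.5% of 4-fold changes were recovered at P80 relative to P12 and 65.5% at P310 relative to P80. The changed genes were drawn from all tested genes except the lowest, so these are not rates for the members. None passed the test at P80 relative to P12 (background 1.02% lower and 0.406% higher) by edgeR, DESeq2 or limma-voom, and 3 had an unadjusted p under 0.05 (3.75%, background 9.75%), all lower (Uqcrc1, Atp5a1 and Atp5o). The median log2 change was -0.21, against -0.03 for all genes, and leaving out P12 replicate 1 gave 0.25, leaving out P12 replicate 2-3 gave -0.55. At P310 relative to P80 no member passed by any of the 3 tools (background 0.0% lower and 0.0% higher), and 3 had an unadjusted p under 0.05 (3.75%, background 5.49%), with Ndufa7 lower and Uqcrc1 and Cox6a1 higher. The median there was 0.22, against 0.03 for all genes, and it was 0.05 without P310 replicate 2, 0.13 without P310 replicate 1 and 0.08 by limma-voom.

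The P310 samples of the main subunits overlapped those of P80. Atp5b averaged 154 ± 30.5 CPM at P310 (SD, n = 4), against 138 ± 15.5 CPM at P80 (n = 3), a log2 change of 0.16 ± 0.21 (SE). Cox4i1, the regulatory subunit at the entry of cytochrome c oxidase, averaged 70.4 ± 42.3 CPM at P310, against 42.3 ± 12.02 CPM at P80, with P310 replicate 2 alone at 131 CPM. P310 replicate 2 was also high for Cox6a1 (156 CPM), Cox8a (149.9 CPM) and Ndufb9 (105 CPM). The sum of 12 oligodendrocyte genes in that sample was 67780.0 CPM, against 1067, 553 and 486 CPM in the other P310 samples. The part of these genes in those levels was not tested. P310 replicate 2 had the lowest TMM factor of the 12 samples, 0.631, which raises its CPM. With raw library totals its sum over all members was 1918 CPM, against 2122, 2206 and 1746 CPM in the other P310 samples. Its complex IV sum was still the highest of that age, 542 CPM against 314, 320 and 235 CPM.

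Complex IV is the complex with most tissue-specific isoforms, and in these libraries the widely expressed form was the higher one in each pair. Compared per kilobase of exon, E16 means were 52.8 CPM per kb for Cox4i1 and 0.784 for the oxygen-regulated, lung-type Cox4i2, and P310 means were 45.4 and 4.12 CPM per kb. Cox6a1 stood at 73.1 CPM per kb at E16 and its muscle form Cox6a2 at 0.231. Cox6b1 stood at 49.1 CPM per kb and its testis form Cox6b2 at 1.65. The testis forms Cox7b2 and Cox8c had 2 and 0 counts over all samples.

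Cox4i2 and Cox7a1 were low members with higher means at each later age than at E16. Cox4i2 had 0.0720, 0.543 and 1.24 CPM at E16, 2.36 and 0.912 CPM at P12, 1.96, 4.20 and 2.09 CPM at P80 and 4.62, 5.28, 2.14 and 0.935 CPM at P310, and its change at P12 relative to E16 was 1.37 ± 1.02 (SE), adjusted p = 0.352. Cox7a1, the heart and muscle form of Cox7a2, had 0.0720, 0 and 0.0590 CPM at E16, 1.68 and 0.445 CPM at P12, 0.697, 1.85 and 0.209 CPM at P80 and 0, 1.98, 1.07 and 1.10 CPM at P310. The E16 values are at most 1 count per library, so the fitted log2 change of 4.38 ± 1.64 (SE) depends on the prior count, and its adjusted p was 0.0618. Cox8b, the muscle form of Cox8a, had 0, 0 and 0 CPM at E16, 0 and 0.0636 CPM at P12, 0, 0 and 3.76 CPM at P80 and 1.06, 1.10, 0.802 and 0.680 CPM at P310. It had no count in the E16 samples, which allows up to 3 counts per library, its P80 mean came from 1 sample, and it was above 0 in all samples at P310 alone.

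The summed level of 12 mural genes was 1304 and 1034 CPM at P12, against 194, 285 and 204 CPM at E16, and 10 of the 12 rose. At P80 the sum was 1189.8, 1424 and 1564 CPM and at P310 1688, 1374, 1008 and 913 CPM. The part of mural cells in these levels was not tested. Cox7a2 had 9.64 and 6.02 CPM at P12, against 10.3, 11.5 and 27.7 CPM at E16, and Cox7a2l, which helps join complexes III and IV, had 38.2 and 30.4 CPM, against 46.6, 50.4 and 72.3 CPM. Neither passed the test (log2 change -1.08 ± 0.58 (SE) and -0.72 ± 0.60 (SE), adjusted p = 0.191 and 0.412). Cox7b and Cox8a overlapped between P12 and E16 (log2 change -0.32 ± 0.44 (SE) and -0.30 ± 0.73 (SE), adjusted p = 0.648 and 0.806).

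**Figure D4:**
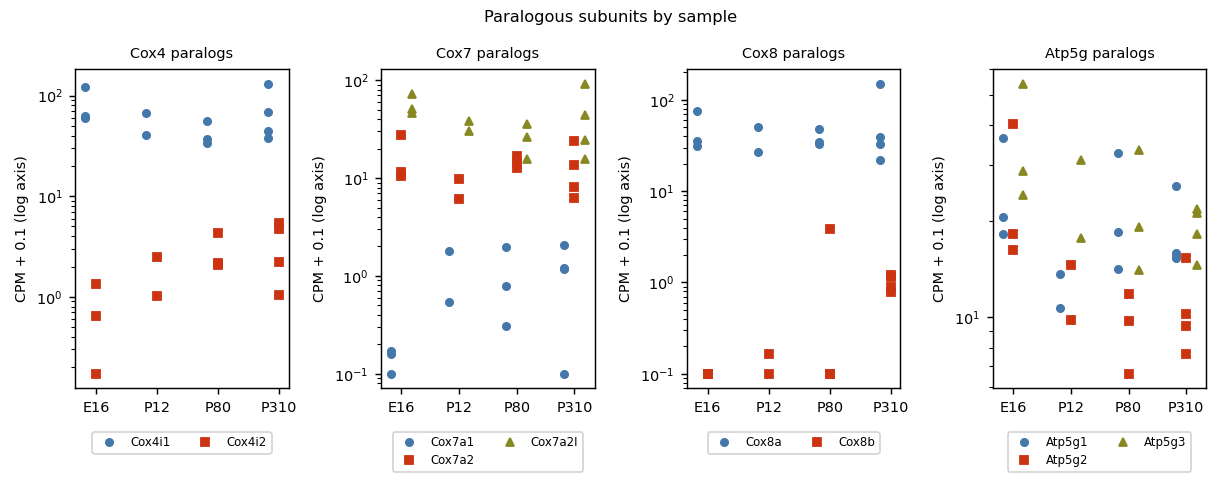
CPM + 0.1 (y axis, log scale) of paralogous subunits by age (x axis), 1 point per sample. The Cox4 panel shows Cox4i1 above Cox4i2 in every sample, the Cox7 panel shows Cox7a1 near 0 at E16, the Cox8 panel shows Cox8b at 0 in all E16 samples, and the Atp5g panel shows the 3 genes of the c subunit in the same range.

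The c subunit that forms the rotor ring of ATP synthase is made from 3 genes with the same mature protein. Atp5g1 had 20.5, 18.1 and 36.5 CPM at E16, 13.5 and 10.6 CPM at P12, 14.1, 18.4 and 32.7 CPM at P80 and 25.6, 15.5, 15.2 and 15.7 CPM at P310. Atp5g2 had 16.1, 18.1 and 40.4 CPM at E16, 14.4 and 9.69 CPM at P12, 6.53, 9.63 and 11.7 CPM at P80 and 15.2, 9.24, 10.1 and 7.56 CPM at P310, and Atp5g3 had 24.04, 28.7 and 53.95 CPM at E16, 31.04 and 17.6 CPM at P12, 13.9, 19.02 and 33.5 CPM at P80 and 21.1, 21.8, 18.2 and 14.4 CPM at P310. In Atp5g1 and Atp5g2 the P12 samples lay below the E16 samples without passing the test (log2 change -1.06 ± 0.44 (SE), adjusted p = 0.0899, and -1.05 ± 0.48 (SE), adjusted p = 0.123), and Atp5g3 overlapped (-0.55 ± 0.44 (SE), adjusted p = 0.386). Per kilobase of exon at E16 they stood at 5.10, 14.9 and 16.3 CPM per kb for Atp5g1, Atp5g2 and Atp5g3.

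Across all members the levels per kilobase were uneven, and the leading genes differed between ages. Atp5a1 had 127.6 CPM per kb at E16, Atp5b 90.5 and Cox8a 87.4, against a median of 19.4 over the tested members. At P310 the highest were Cox8a with 111.7 CPM per kb, Cox6a1 with 86.5 and Atp5h, a subunit of the peripheral stalk, with 50.6, against a median of 12.7. Of the 83 members, 28 have at least 1 processed pseudogene with 90% identity or more over at least 200 bases. The authors' counts include reads that map to several places, so reads of such copies can count for the member too.

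Most subunits encoded in mitochondrial DNA rose at P12. Their 13 transcripts summed to 2369, 5603 and 3383 CPM at E16, 7509 and 18134 CPM at P12, 24674, 69306 and 54699 CPM at P80 and 111660.0, 112140.0, 42866 and 59325 CPM at P310. At P12 relative to E16, 10 of the 13 rose (76.9%, against 16.7% of all genes), with a median log2 change of 1.69. The count was 13 by DESeq2 and 0 by limma-voom with quality weights, and 0 without P12 replicate 2-3, without E16 replicate 1 or without E16 replicate 3, with medians of 0.89, 1.46 and 1.56, and it was 6 without P80 replicate 3. mt-Co1, the catalytic subunit of complex IV, had 1886 and 4199.5 CPM at P12, against 537, 1238 and 774 CPM at E16 (log2 change 1.84 ± 0.52 (SE), adjusted p = 0.0171). mt-Nd5 and mt-Nd6 of complex I changed by 2.18 and 2.22 (adjusted p = 0.0188 and 0.0201). At P80 relative to P12 none of the 13 passed by edgeR or limma-voom, although all 13 had an unadjusted p under 0.05 and DESeq2 called 11 higher. At P310 relative to P80 none passed by any of these tools or at an unadjusted p under 0.05.

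The ratio of the mitochondrially encoded sum to the nuclear sum was 0.786, 1.70 and 0.659 in the E16 samples and 2.42 and 9.53 in the P12 samples. It was 12.2, 33.4 and 25.2 at P80 and 45.99, 36.9, 19.1 and 33.5 at P310. E16 and later samples did not overlap. The part of the sorted mix in this ratio was not tested.

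**Figure D5:**
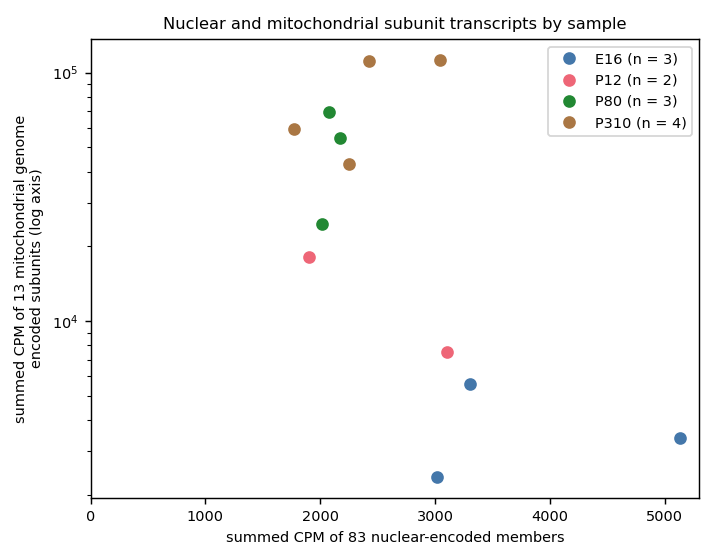
Summed CPM of the 13 subunits encoded in mitochondrial DNA (y axis, log scale) against summed CPM of the 83 nuclear-encoded members (x axis), 1 point per sample and coloured by age. The E16 samples lie lowest on the y axis, the P12 samples above them and the P80 and P310 samples highest.

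Other nuclear genes of the pathway were counted from lists chosen by function. None of the 15 tested complex I assembly factors and none of the 33 for complexes II to V passed the test at P12 relative to E16. Of all genes, 10.5% were called lower and 16.7% higher. The medians of the 2 lists were -0.60 and -0.52, with an unadjusted p under 0.05 for 2 and 2 genes. DESeq2 called 1 and 2 and limma-voom 1 and 3, all lower. Of 8 subunits and carriers outside the naming pattern, 1 fell (12.5%, near the 10.5% of all genes). That was Atpif1, the protein that inhibits ATP synthase when it runs in reverse. Atpif1 had 93.6 and 51.3 CPM at P12, against 156, 185 and 369 CPM at E16 (log2 change -1.71 ± 0.44 (SE), adjusted p = 0.0106). Without P12 replicate 2-3 Atpif1 did not pass (log2 change -1.34, adjusted p = 0.124). Cytochrome c (Cycs) and the cytochrome c1 subunit Cyc1 changed by -0.81 and -0.74 without passing (adjusted p = 0.175 and 0.116), and the acyl carrier subunit Ndufab1 by -0.54 (adjusted p = 0.295). Ndufa4l2, a paralog of Ndufa4, had 5.04 and 2.54 CPM at P12, against 2.95, 3.08 and 3.24 CPM at E16.

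Among 20 regulators and factors of mitochondrial DNA expression, 4 fell (20%, against 10.5% of all genes) and 2 rose (10%, against 16.7%). Twnk, the mitochondrial DNA helicase, had 8.15 and 9.78 CPM at P12, against 39.9, 28.7 and 33.5 CPM at E16 (log2 change -1.92 ± 0.46 (SE), adjusted p = 0.00612). Tfam, which packages and transcribes mitochondrial DNA, had 11.01 and 11.5 CPM, against 23.5, 27.7 and 31.96 CPM at E16 (-1.30, adjusted p = 0.0302). Nrf1, the transcription factor of many respiratory genes, had 24.3 and 27.9 CPM, against 59.3, 49.3 and 51.4 CPM (-1.03, adjusted p = 0.0343). In all 3 genes both P12 samples lay below all E16 samples. Slirp, which stabilises mitochondrial messenger RNA, also fell (-0.95, adjusted p = 0.023), and Ppargc1a, a coactivator of mitochondrial biogenesis, changed by 0.81 (adjusted p = 0.109). Gabpa, an ETS factor of respiratory genes, had 86.3 and 55.6 CPM at P12, against 65.6, 59.8 and 62.6 CPM at E16, and it shares 397 exon bases with Atp5j on the opposite strand. The 2 that rose, named after their values were seen, were Ppargc1b and the polymerase Polg (1.89 and 0.67, adjusted p = 0.0461 and 0.0432). The count of falls was 1 when E16 replicate 2, E16 replicate 3, P12 replicate 1 or P12 replicate 2-3 was left out. The count of rises was 0 when any single E16 sample, P12 replicate 2-3, P80 replicate 1 or P80 replicate 3 was left out, and 1 without P310 replicate 3 or P310 replicate 4.

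Of 24 genes of mitochondrial import, membranes and chaperones, 8 fell (33.3%, against 10.5% of all genes), with a median of -0.79. The count was 4 without E16 replicate 1, E16 replicate 3 or P12 replicate 1, 5 without E16 replicate 2 and 1 without P12 replicate 2-3. The chaperonin Hspd1 had 46.5 and 27.8 CPM at P12, against 119, 103 and 141 CPM at E16 (log2 change -1.70 ± 0.31 (SE), adjusted p = 0.000717), and Hspa9, the motor of import, and the ADP/ATP carrier Slc25a4 changed by -0.92 and -1.03 (adjusted p = 0.00704 and 0.0104). Of 78 mitochondrial ribosomal proteins 6 fell (7.69%, below the 10.5% of all genes), with a median of -0.74, among them Mrps17, Mrps5 and Mrpl19 (-1.19, -0.97 and -1.30). That count was 0 without E16 replicate 3 or P12 replicate 2-3 and 1 without P12 replicate 1. In the TCA cycle 2 of 17 fell (11.8%, near the 10.5% of all genes), Mdh2 (-1.20, adjusted p = 0.00413) and citrate synthase Cs (-0.84, adjusted p = 0.0103), and 2 rose (11.8%, against 16.7%), among them Ogdh (0.77, adjusted p = 0.0298). Without P12 replicate 2-3 neither a fall nor a rise passed in this list, and no rise passed without E16 replicate 2, E16 replicate 3 or P12 replicate 1.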

How the data were processed

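Total RNA of Pdgfra-sorted cells was measured in 13 bulk libraries. Each deposited file gives 1 raw count for each gene, which the authors made by assigning reads to exons of Ensembl GRCm38 release 92 with featureCounts 1.5.0-p1, per the file headers. These headers record that reads overlapping several genes (at least 10 bases) and reads mapping to several places were counted for each gene and that no strand option was set, so paralogs, pseudogenes and overlapping genes share reads. Trim Galore and TopHat2 2.1.1 are named in the submitters' processing notes. Groups follow the ages in the sample titles. Gene names came from GENCODE M21 for 37715 of the 37785 genes.

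Genes were kept with filterByExpr by age, scaled by TMM and fitted with 1 mean per age over 12 samples by the robust quasi-likelihood F test of edgeR 4.0.16 (common biological coefficient of variation 0.513) under R 4.3.3. The 3 steps in age and all ages together were tested, with Benjamini-Hochberg adjustment over 21170 genes. The SE of a log2 change is its size divided by the root of F. Summed CPM, levels per kilobase (by the deposited gene length) and list counts are descriptions with no test. Counts of 0 allow up to 3 counts, a limit for counting error alone because PCR duplicates were not told apart. Pseudogene copies were searched with BLAST+ 2.17.0. Python 3.11.15, numpy 2.4.6, pandas 2.3.3 and matplotlib 3.10.9 made the summaries and figures. The fit was tested on simulated counts with a 4-fold change in 200 genes, drawn from all tested genes except the lowest. It recovered 51.5% of them for P12 relative to E16, 44.5% for P80 relative to P12 and 65.5% for P310 relative to P80. Smaller changes were not simulated.

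P12 replicates 2 and 3 were summed after their likeness was seen. The same replicate number at different ages did not pair samples (correlations of -0.0936 to 0.208 over 15 pairs). Alternatives were DESeq2 1.42.0, limma-voom (limma 3.58.1), other scalings and filters, a replicate block and leaving out each sample. Members, gene lists (10 of markers, 9 of pathways) and comparisons were chosen with earlier results of these data known. Named were, per comparison, up to 4 called members of each complex with the smallest adjusted p, 10 core members and 7 paralog sets, and up to 3 called genes per pathway list, except 1 member that is not reported here. Atp5a1 and other genes without a promoter in the RefSeq table have none shown.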

Additional observations from a re-analysis of the deposited data

Results flagged for a closer look

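In 6 of 86 values examined (the members and sums within P310, the one age with 4 samples), 1 sample lay far from the other 3, and chance gives such a gap in about 1 in 20 groups. P310 replicate 2 was the high sample for Cox6a1 (155.9 CPM), Cox8a (149.9 CPM), Ndufb9 (104.6 CPM) and Cox5b (83.8 CPM). That library also held the highest oligodendrocyte marker sum of the series, 67780 CPM, and the part of those cells was not tested. It had the lowest TMM factor as well, 0.631, which raises its CPM. Atp5g1 was high in P310 replicate 1 (25.6 CPM), and the sum over complex III was low in P310 replicate 4 (159.0 CPM).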

How the results depend on the processing

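The count of 6 members lower at P12 than at E16 was 1 with a log2 change of at least 1, 12 by DESeq2, 14 by limma-voom, 3 with only the 2 ages compared (which moved the median of all genes by 0.12), 15 with P12 replicates 2 and 3 apart and 0 to 9 when 1 sample was left out. It was 1 with E16 replicate 3 and P310 replicate 2 both left out, a setting chosen after seeing the data. It was 6 under RLE size factors and without mitochondrial genome counts, with the same 6 genes in both. The share of all genes called was computed for the main setting alone. The replicate numbers did not pair the samples, and with a replicate block 3 members were lower and 14 differed over all ages. The count of 0 higher members was 1 (Cox7a1) by DESeq2, by limma-voom and with the P12 replicates apart, and 0 to 1 in leave-one-out. With no low-count filter 1 member (Uqcrc1) was lower at P80 than at P12, 1 (Cox6a1) was higher at P310 than at P80, and 26 differed over all ages. The 17 over all ages were 9 with both samples left out and 7 to 19 when 1 was left out. The change of Sdha at P12 turned to -0.015 with RLE, -0.016 by DESeq2, -0.00829 by limma-voom and -0.046 with P12 replicates apart, and spanned -0.16 to 0.16 in leave-one-out. That of Uqcrc1 spanned -0.44 to 0.12 in leave-one-out, with the highest value without P12 replicate 2-3. With raw library totals the sums at P310 relative to P80 turned to -0.11 for complex I, -0.15 for complex II, -0.07 for complex III, -0.22 for complex V and -0.11 for all members on the log2 scale, while complex IV was at 0.13. The causes were not tested. With n = 2 at P12 and 3 counts as the limit of a 0, small differences in low members such as Cox7a1, Cox8b and Cox6a2 were not detectable at this depth.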

Other observations

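Glycolysis genes split in both directions. Of 21 genes, 5 fell (23.8%, against 10.5% of all genes) and 4 rose (19.0%, against 16.7%) at P12 relative to E16, with a median log2 change of -0.09. Slc16a1, which carries lactate and pyruvate across membranes and is abundant in brain endothelium, averaged 1160 ± 406 CPM at P12 (SD, n = 2), against 18.8 ± 1.56 CPM at E16 (n = 3). Its log2 change was 5.95 ± 0.40 (SE), adjusted p = 7.5e-08 by edgeR's quasi-likelihood test. At P80 relative to P12 it fell by 3.43 on the log2 scale, the one pathway gene that passed in that step. Pdk4, a kinase that holds back pyruvate entry into mitochondria, averaged 32.9 ± 5.67 CPM at P12, against 3.89 ± 0.50 CPM at E16 (log2 change 3.08, adjusted p = 6.5e-06). The phosphofructokinase Pfkp averaged 88.7 ± 19.5 CPM at P12, against 18.5 ± 5.93 CPM at E16 (log2 change 2.26, adjusted p = 3.3e-05). The endothelial marker sum was 7168 and 6356 CPM at P12, against 83.2, 85.9 and 64.6 CPM at E16, and the part of endothelial cells in these rises was not tested. Of the 5 falls in this list 1 was left without E16 replicate 3 and 0 without P12 replicate 2-3, and of the 4 rises 4 and 3.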
